A study of Mus musculus with 31 samples.

Results

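Ribosome-protected fragments (RPFs) were compared between 2 lines of mouse squamous cell carcinoma (SCC) cells under bortezomib, S51 (able to mount the integrated stress response) and S51A (ISR-null). The comparison took 4 S51 and 4 S51A libraries, 8 of the 31 samples of the series. Genes entered it if they lay on an autosome and passed a filter on low counts, which 9172 of the 20704 listed genes did. All cells carried oncogenic HRasG12V, with Tgfbr2 given as TgfbrIIfl/fl in the sample labels and as the recombined, deleted allele in the published list of cell lines. After loss of the endogenous Eif2s1 alleles by Cas9, they expressed myc-tagged eIF2α from the PGK promoter, either wild type (S51) or with serine 51 replaced by alanine (S51A). Bortezomib, a proteasome inhibitor, was given at 100 nM, for 4.5 h in the sample labels and 4 h in the published legend. Vehicle (DMSO) libraries, 3 from S51 and 4 from S51A, and total RNA libraries of both lines served as reference points. Because the cells were single-cell clones, a difference between the lines can come from eIF2α or from the clone, and these cannot be told apart here. The study calls the replicates technical in one place and biological in another, so p-values may measure technical spread alone.

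The integrated stress response (ISR) starts when a stress-activated kinase phosphorylates the α subunit of eIF2, the factor that brings initiator tRNA to the ribosome. Phosphorylated eIF2 blocks its exchange factor eIF2B, so most mRNAs initiate less often, while a few mRNAs with short upstream open reading frames (uORFs) are translated better. Among these are the transcription factors Atf4, Atf5 and Ddit3 (CHOP), and ATF4 induces genes of amino acid synthesis, amino acid transport and tRNA charging. RPF counts follow both mRNA abundance and ribosome loading, and translation efficiency (TE) is the RPF level relative to the total RNA level.

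The codon at issue is codon 52 of Eif2s1, serine 51 once the first methionine is removed, in the coding sequence on the plus strand (RefSeq, GRCm38.p6). It is shown in capitals, and the transgenes themselves were not read.
Eif2s1, chr12:78866668-78866694: cttagtgaattaTCCagacgacgtatc
Counts from the endogenous and the transgenic Eif2s1 sequence cannot be separated in these tables. Eif2s1 RPFs, as CPM (counts relative to the library total, scaled by the trimmed mean of M values), were 164, 170, 196 and 148 in S51 and 235, 215, 192 and 190 in S51A. The lines overlapped, and the difference of -0.29 ± 0.16 (log2 S51 minus S51A, SE) did not pass edgeR's quasi-likelihood test, Benjamini-Hochberg adjusted (adjusted p = 0.166). Under vehicle it was -0.73, a called difference, and -0.48 without S51 vehicle replicate 2 (adjusted p = 0.000262, edgeR), under the 1.5-fold limit used for calls.

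RPF totals ran from 1038826 to 2609137 counts in S51 and from 1955554 to 3175443 in S51A, and those of the total RNA libraries under bortezomib from 18758668 to 22290040. Log2 CPM correlated across genes at 0.968 to 0.982 within a line (12 pairs) and 0.936 to 0.953 between lines (16 pairs), with genes not being independent replicates. All 9 basal keratinocyte and SCC markers passed the filter, with summed CPM of 27800 to 32100 in S51 and 29300 to 34900 in S51A. Of 8 fibroblast markers 5 were at 0 in all 8 libraries, as were 5 of 8 immune, 4 of 5 endothelial and 3 of 5 melanocyte markers. The summed immune markers were at 7.28 to 15.3 CPM in S51 and 17.4 to 20.3 in S51A, nearly all of it from Cd68 and Csf1r. The vehicle library S51 replicate 2 stood apart from the others of its group, with a chi-square per gene of 13.29 and 18.47 against 2.061 between those. Some of the vehicle values are therefore also given without it.

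Under bortezomib, RPFs of 709 genes were higher in S51 and of 924 lower, counting genes with an adjusted p under 0.05 and a difference over 1.5-fold (7.73% and 10.1% of the genes tested, 17.8% in all). With library sizes alone in place of trimmed means the calls were 847 higher and 816 lower, so that 50.9% instead of 43.4% were higher. For 3173 genes (34.6%) no S51 library overlapped an S51A library. Much of this was shared with the vehicle-treated cells, which are separate libraries: 312 of the 709 (44%) were also called higher under vehicle, 50.6% of the 616 called there, and 484 of the 924 (52.4%) were also called lower, 57.7% of 839. Among all tested genes 6.72% were called higher and 9.15% lower under vehicle. Without S51 vehicle replicate 2 the shared genes numbered 296 and 515, of 756 and 991 called under bortezomib in that fit (39.2% and 52%) and of 473 and 777 under vehicle (62.6% and 66.3%).

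Most RPF differences also had an RNA counterpart. Of the 709 higher genes 404 were called higher in total RNA too (6.96% of genes were), and 698 had a value above 0. Of the 924 lower genes 510 were called lower (8.92% of genes) and 875 were below 0. Higher calls made up 43.8% of those in total RNA, and 34.2% with library sizes alone (503 higher and 969 lower). Over genes, the RPF difference under bortezomib had a Pearson correlation of 0.752 with that under vehicle (n = 9172) and of 0.838 with the total RNA difference (n = 9140). Each is a description, since genes share libraries. No gene was called in opposite directions in RPF and total RNA.

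**Figure D1:**
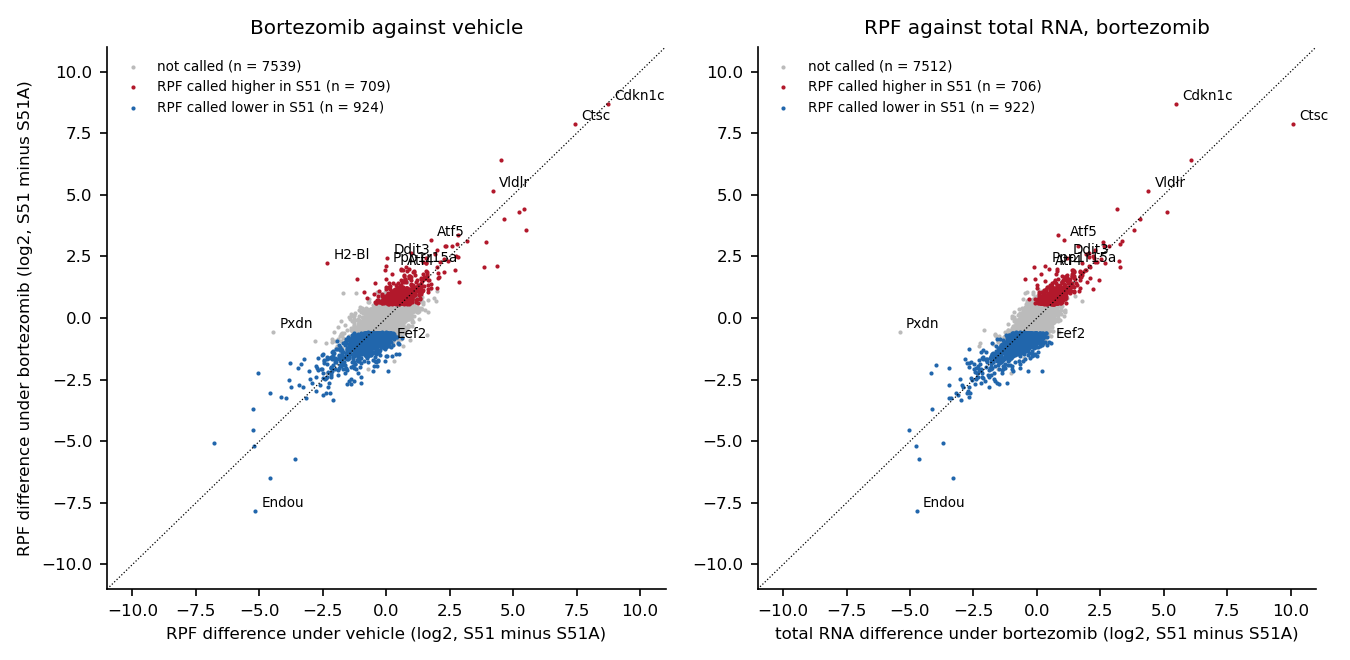
Each point is an autosomal gene, with its RPF difference under bortezomib (y, log2 S51 minus S51A) against its RPF difference under vehicle (left) or its total RNA difference under bortezomib (right), on the same scale. Red points were called higher and blue points lower in S51 in RPF; most lie along the dotted line of equality, while Pxdn lies far from it in both panels, with -0.57 in RPF against -4.46 under vehicle and -5.40 in total RNA.

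Of 11 tested mRNAs whose translation is controlled by uORFs, 6 were called higher and none lower, all 11 lay above 0, and the median difference was 0.60. Atf4, the central transcription factor of the ISR, had 506, 506, 538 and 529 CPM in S51 and 108, 141, 137 and 141 in S51A. The lines were far apart and the libraries of each close together, a difference of 1.98 ± 0.11 (adjusted p = 3.44e-11, edgeR's quasi-likelihood test, Benjamini-Hochberg adjusted). Under vehicle the Atf4 difference was 0.58 and in total RNA 0.48, both under the 1.5-fold limit, and the TE difference of 1.51 was called. Without S51 vehicle replicate 2 the vehicle difference was 0.60 and was called.

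Atf5, a related factor, showed the largest difference of this list. Its CPM were 121, 185, 148 and 206 in S51 and 14.2, 17.1, 19.8 and 22.1 in S51A, a difference of 3.18 ± 0.20. Of this, 1.76 was present under vehicle (1.52 without S51 vehicle replicate 2) and 1.06 in total RNA, and the TE difference was 2.13. Ddit3, a factor linked to cell death under stress, had 32, 46.9, 42 and 61.1 CPM in S51 and 2.26, 11.2, 8.84 and 12.4 in S51A. Every S51 library lay above every S51A library, with a difference of 2.45 ± 0.29 against 0.03 under vehicle (-0.13 without S51 vehicle replicate 2). Ppp1r15a (GADD34), the inducible subunit of the phosphatase that resets eIF2α, had 8.73, 15.3, 17 and 16.8 CPM in S51 and 2.92 to 3.64 in S51A. Its difference was 2.10 ± 0.27 in RPF, -0.01 under vehicle and 0.33 in total RNA, where it was not called.

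For these genes the difference between lines was itself larger under bortezomib than under vehicle, by 1.40 for Atf4, 1.42 for Atf5, 2.42 for Ddit3 and 2.12 for Ppp1r15a (adjusted p = 4.15e-05, 0.0124, 0.00735 and 0.0195 for the interaction, edgeR's quasi-likelihood test, Benjamini-Hochberg adjusted). Ifrd1 was the other one of the list so called, at 0.93. Over all genes 0.883% were called higher and 1.01% lower by this interaction, and all of Atf4, Atf5, Ddit3 and Ppp1r15a kept their call without S51 vehicle replicate 2. Ppp1r15a lost it without S51 bortezomib replicate 3 (2.01, adjusted p = 0.0508 from edgeR), and Ifrd1 without replicate 2, 3 or 4 of either line under bortezomib (0.83 to 0.96).

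The remaining members differed less. Cebpb was called at 0.95 and Eprs, the glutamyl-prolyl-tRNA synthetase, at 0.60, both with RNA differences of similar size (0.91 and 0.80). Ppp1r15b, the constitutive phosphatase subunit, at 0.57, Ifrd1 at 0.57 and Ibtk at 0.49 passed the adjusted p but not the fold limit. Slc35a4 at 0.04 and Cebpg at 0.18 had overlapping libraries, and Atf3 was not among the genes tested. A stricter filter of 10 counts in every library removed Ddit3 and Ppp1r15a and put Eprs at 0.58, which left 3 called members. Eprs was also under the fold limit without S51 replicate 3 or S51A replicate 3 or 4 (0.56 to 0.58).

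**Figure D2:**
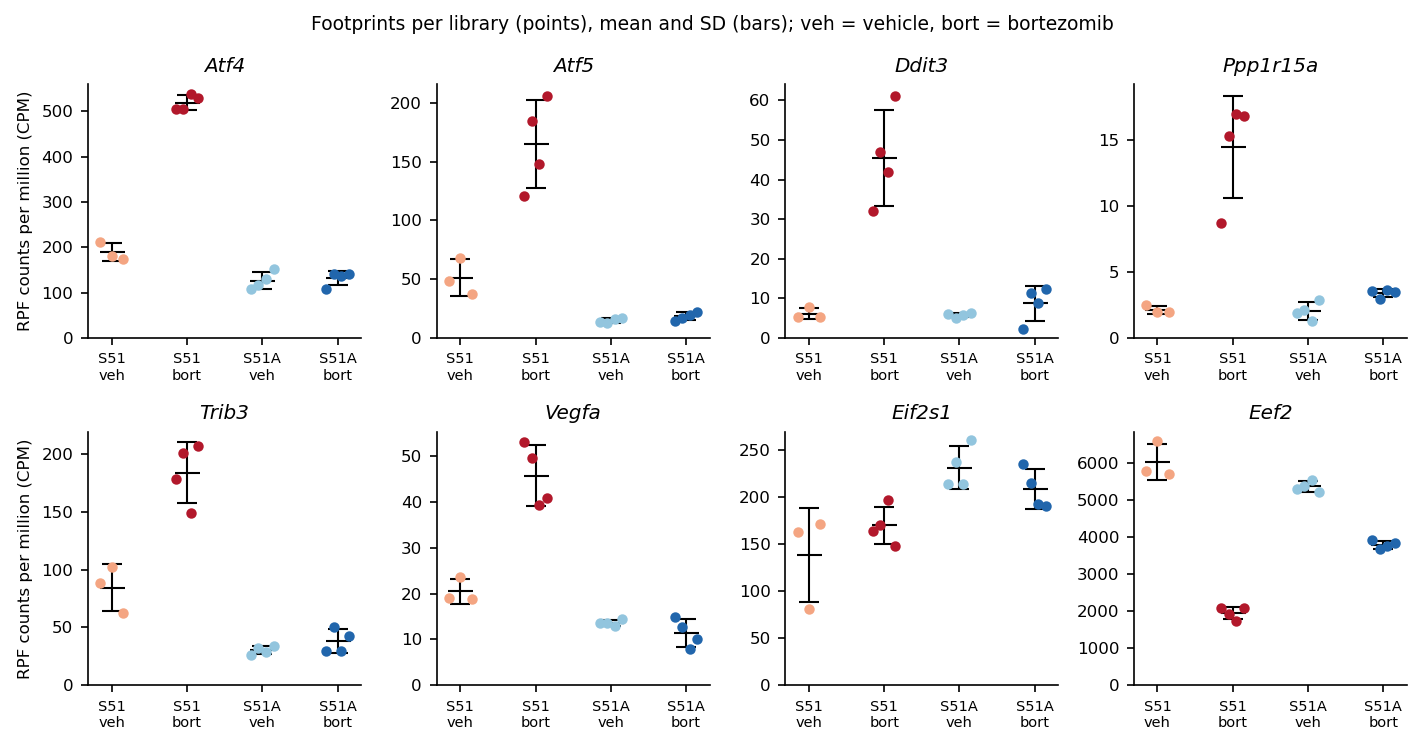
RPF levels in CPM (y) of 8 genes in each library (points) by line and treatment, with the mean and SD (bars), 3 libraries for S51 vehicle and 4 for each other group. Atf4 stands at 506 to 538 in S51 under bortezomib and at 108 to 141 in S51A, and the elongation factor Eef2 at 1720 to 2070 against 3670 to 3920.

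The annotated 5′ leaders of these mRNAs carry ATG triplets before the coding sequence, from which uORFs can start: 3 in Atf4, 6 in Atf5, 2 in Ddit3 and 3 in Ppp1r15a (RefSeq transcripts, leaders of 594, 293, 167 and 283 bases). Eprs and Cebpb had none in the transcript read.

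ATF4 target genes were higher in S51 almost throughout: of 30 tested, 26 were called higher and none lower, with a median of 1.13 and all 30 above 0. Their total RNA median was 1.31 (28 called) and their vehicle median 0.97 (22 called), and none was called in TE. Without S51 vehicle replicate 2 the vehicle median was 0.87, with 20 called. The largest was Vldlr, a lipoprotein receptor, at 9.56 to 16.2 CPM in S51 and at 0.322, 0, 0 and 0.774 in S51A, where only 3 counts were found in all. The ratio was 40.9, with a 95% interval of 13.5 to 202 that covers counting error only.

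Trib3, a pseudokinase that restrains ATF4, had 178, 201, 149 and 207 CPM in S51 and 29.3, 50.2, 29.6 and 42.6 in S51A, a difference of 2.28 ± 0.17. Amino acid transport and synthesis genes, picked here after their values were seen, were higher too: the neutral amino acid transporters Slc1a4 (1.86 ± 0.15), Slc1a5 (1.63 ± 0.14) and Slc7a5 (1.51 ± 0.10), the phosphoserine aminotransferase Psat1 (1.26 ± 0.08) and the asparagine synthetase Asns (1.12 ± 0.07). These differences were also present under vehicle, at 1.62, 1.35, 1.41, 1.05 and 0.95. Chac1, which degrades glutathione, instead differed by 1.60 ± 0.22 under bortezomib and 0.01 under vehicle (-0.21 without S51 vehicle replicate 2).

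The hormone Gdf15 had 21.6 to 32 CPM in S51 and 4.68 to 10.1 in S51A, and the angiogenic factor Vegfa 39.3 to 53.1 against 7.8 to 14.8. Neither overlapped between lines, and the differences were 1.96 ± 0.30 and 1.95 ± 0.18. The Vegfa interaction of 1.39 was called, and that of Gdf15, 1.31, was not. Without S51 vehicle replicate 2 the Gdf15 interaction was 2.35, still not called, and its vehicle difference was -0.39 instead of 0.65. The other 4 members missed the call, among them Phgdh, the first enzyme of serine synthesis, at 0.22, and Slc38a2, a glutamine transporter, at 0.39.

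Cytosolic aminoacyl-tRNA synthetases, which charge tRNAs and of which many are ATF4 targets, followed with 11 of 20 called higher, none lower and a median of 0.61 (0.74 in total RNA, 13 called, and 0.47 under vehicle, 6 called). Aars, for alanine, had 777 to 861 CPM in S51 and 371 to 407 in S51A (1.06 ± 0.07). Yars (1.10), Iars (1.09) and Lars (0.96) were next to it, and for Lars the interaction of 0.68 was called, though not without S51 vehicle replicate 2 (0.53). Their TE differences lay between -0.04 and 0.26, and none was called.

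ATF4 acts with C/EBP proteins at composite elements, and promoters of these genes were read for the letters TGATG, then any base, then AA, on both strands, from 250 bases before to 50 after the annotated start (RefSeq, GRCm38.p6). Of 25 ATF4 target genes with a window 10 held a match (40%), as did 5 of 13 synthetase genes (38.5%), against 2.48% of 7468 tested genes and 3.97% of all 32851 windows. Among genes called higher in RPF 29 of 571 held one (5.08%), among those called lower 22 of 747 (2.95%), and in the uORF list 0 of 9. Those 29 include genes of the ATF4 target and synthetase lists, such as Vldlr and Yars, and the share without these lists was not computed. Matches of some of the genes described are shown as read on the strand of the match, which is in capitals.
Vldlr, chr19:27216812-27216835, minus strand: aggagcgcTGATGCAActattgct
Trib3, chr2:152344031-152344054, plus strand: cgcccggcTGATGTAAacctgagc
Slc7a11, chr3:50443664-50443687, minus strand: catgtggcTGATGCAAacctggag
Yars, chr4:129189898-129189921, plus strand: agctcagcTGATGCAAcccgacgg
Iars, chr13:49682129-49682152, minus strand: tctggaggTGATGCAAtactgaca
Aars, chr8:111033722-111033745, minus strand: ggctcggcTGATGCAAtgctcaag
Of the matches shown, those of Trib3, Yars and Iars lie within the first bases after the start and those of the others before it. Aars and Slc7a11 each held another match, not shown, at 9 and -47 bases from the start. A match is a description of the sequence, and binding was not measured.

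Cytosolic ribosomal proteins went the other way. Of 73 tested, none was called higher and 33 were called lower, with a median of -0.56, and for 71 of them all S51 libraries lay below all S51A libraries (18% of all genes did). Under vehicle their median was 0.03 and in total RNA -0.04, with none called in either, although every one of the 73 had a TE below 0 (median -0.53). These mRNAs begin with a terminal oligopyrimidine (TOP) tract, through which their translation depends on the growth kinase mTORC1.

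Rps19 had 497, 436, 401 and 502 CPM in S51 and 980, 872, 824 and 810 in S51A. The lines did not overlap, and the difference of -0.93 ± 0.08 stood against 0.08 under vehicle and -0.09 in total RNA (adjusted p = 3.14e-08 under bortezomib, edgeR's quasi-likelihood test, Benjamini-Hochberg adjusted). Rplp2, of the ribosomal stalk, had 170 to 221 CPM in S51 and 343 to 413 in S51A (-0.91 ± 0.09). Rps21 had 543 to 718 against 1070 to 1280 (-0.89 ± 0.08), and Rpl30 61.7 to 87 against 132 to 162 (-0.97 ± 0.15). The interaction called 28 of the 73 lower, and 39 without S51 vehicle replicate 2. Differences of this list sat near the fold limit: only 8 members passed a test against 1.5-fold itself.

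Among 21 other TOP mRNAs 12 were called lower in TE (2.55% of all genes were) and all 21 lay below 0, with a median of -0.63, while in RPF 5 were called lower and 2 higher with a median of -0.22. Their total RNA median was 0.27, with 5 called higher. Eef2, which moves the ribosome along the mRNA, had 2070, 1920, 1720 and 2070 CPM in S51 and 3920, 3670, 3750 and 3840 in S51A. The RPF difference was -0.96 ± 0.07, the total RNA difference 0.47 and the TE difference -1.44, whereas under vehicle RPFs differed by 0.17, or 0.098 without S51 vehicle replicate 2. Eef1a1, which delivers aminoacyl-tRNA, had 3080 to 3520 CPM against 6120 to 7320 (-0.98 ± 0.07, TE -1.28), and its partner Eef1b2 376 to 437 against 662 to 905 (-0.94 ± 0.11, TE -0.91).

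Tpt1 (translationally controlled tumour protein) was lowest in RPF at -1.17 ± 0.16, with -0.63, also a call, under vehicle, but -0.38 and no call without S51 vehicle replicate 2. Vim, the intermediate filament vimentin, and Eif3a, an initiation factor subunit, were the members called higher in RPF, at 2.31 and 0.60, with larger total RNA differences of 3.24 and 0.84. Eif3a fell to 0.55 to 0.58, under the fold limit, without S51 replicate 3 or 4 or S51A replicate 3. TE calls moved with the scaling. With library sizes alone in place of trimmed means, 13 ribosomal protein and 8 other TOP mRNAs were called lower, all still below 0, with medians of -0.43 and -0.53 where the median of all genes was 0.10 instead of 0.00.

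**Figure D3:**
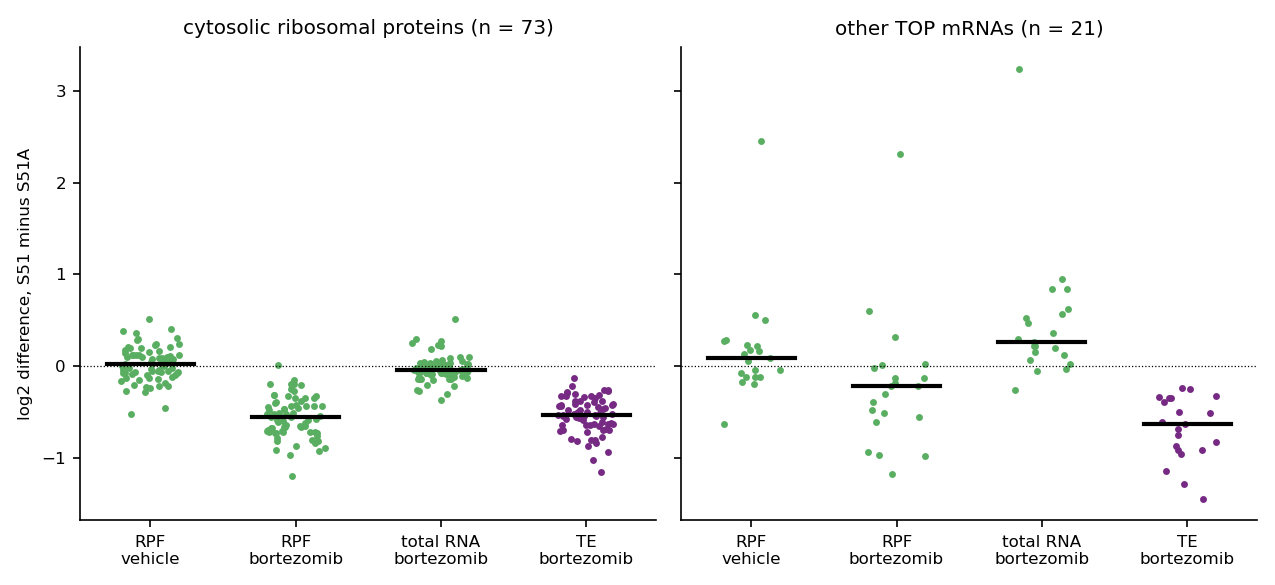
Each point is a ribosomal protein mRNA (left, n = 73) or another TOP mRNA (right, n = 21), with its log2 difference (y, S51 minus S51A) in RPF under vehicle and bortezomib, in total RNA and in TE, and black bars at the medians. Medians of the ribosomal protein mRNAs were 0.03, -0.56, -0.04 and -0.53.

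A TOP start was looked for as a C followed by 4 pyrimidines at the annotated start, which 14 of the 73 ribosomal protein genes (19.2%) and 4 of the 21 others (19%) had, against 2.35% of all genes with a transcript. The annotated start may not be the one used in these cells, and start sites were not measured. Below, 6 bases before the start are followed by the first transcribed ones, with the tract in capitals where it was found.
Rplp2, chr7:141447645-141447670, plus strand: gtcttcCTTTCgccgccggacgccgc
Rps21, chr2:180257373-180257398, plus strand: cccgccCTCCTgcccaatagtgctgc
Eef2, chr10:81176625-81176650, plus strand: ccgggcgttgacgtcagcggtctctt
Within the 2 lists, the 18 genes with such a start had a median TE difference of -0.65, with 50% called lower in TE. The 76 list members without it had -0.53 and 34.2%. Outside both lists 197 genes had such a start. Their median TE difference was -0.03, against 0.00 for the 8860 without it, and 4.57% and 2.14% were called lower in TE.

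Over all genes, the TE model called 51 higher (0.557%) and 234 lower (2.55%) in S51, so that 17.9% of calls were higher. With library sizes alone it called 126 and 141, 47.2% higher, so the balance of directions depends on the scaling. A 2-step filter, an RPF call with an RPF difference that exceeded the total RNA difference by over 1.5-fold, gave 64 (0.698%) and 215 (2.34%). Among genes that passed both, had at least 10 counts in every library of the higher line and did not overlap between lines, those with the largest higher RPF differences were Impact, Atf5, Ddit3, Ppp1r15a, Atf4 and 2410002F23Rik, with TE differences of 2.62, 2.13, 1.30, 1.80, 1.51 and 1.05. Impact, which inhibits the eIF2α kinase GCN2, had 10.2, 9.56, 12.5 and 7.84 RPF CPM in S51 and 0.967, 0.487, 2.08 and 0.387 in S51A. The lines were clearly apart, with a difference of 3.39 under bortezomib, 2.82 under vehicle and 0.84 in total RNA.

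On the lower side, the genes so chosen by their RPF differences had TE differences of -2.34 (Ccni, a cyclin), -1.34 (Hmbox1), -1.33 (Camta1), -1.22 (Ap3s1), -1.19 (Pam, which amidates peptide hormones) and -1.04 (Serpinb1b). Pam had 13.8, 10.5, 15.1 and 11.2 CPM in S51 and 44.8, 40, 38.5 and 40.2 in S51A. Ccni was near the limit of detection in S51, with 1.46, 0, 4.16 and 1.12 CPM against 7.28 to 13.6, and its total RNA differed by 0.20. Leaving out single libraries took the TE call from 2410002F23Rik (S51 replicate 2, 3 or 4, S51A replicate 1, 2 or 4, values of 0.72 to 1.13), Serpinb1b (replicate 1, 2 or 3 of either line, -1.18 to -0.85), Camta1 (S51 replicate 2, 3 or 4, S51A replicate 2 or 3, -1.51 to -1.07) and Hmbox1 (S51 replicate 4, -1.18).

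Of the 234 TE-lower genes 168 had at least 1 upstream ATG in the leader (71.8%). This compares with 44.4% of all genes with a transcript and 28 of the 51 TE-higher genes (54.9%). The TE-lower genes differed among themselves: 160 of the 199 outside the ribosomal protein and TOP lists had one (80.4%), but 8 of the 35 inside them (22.9%). With these lists included, the share of genes called lower in TE was 1.3% without an upstream ATG, 2.85% with 1, 5.92% with 2, 6.91% with 3 and 3.65% with 4 or more. Leader length moved along with it, at a median of 103, 185, 255, 315 and 471 bases, and the median RPF level fell from 40.6 to 17.6 CPM. Their part in the result was not tested.

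**Figure D4:**
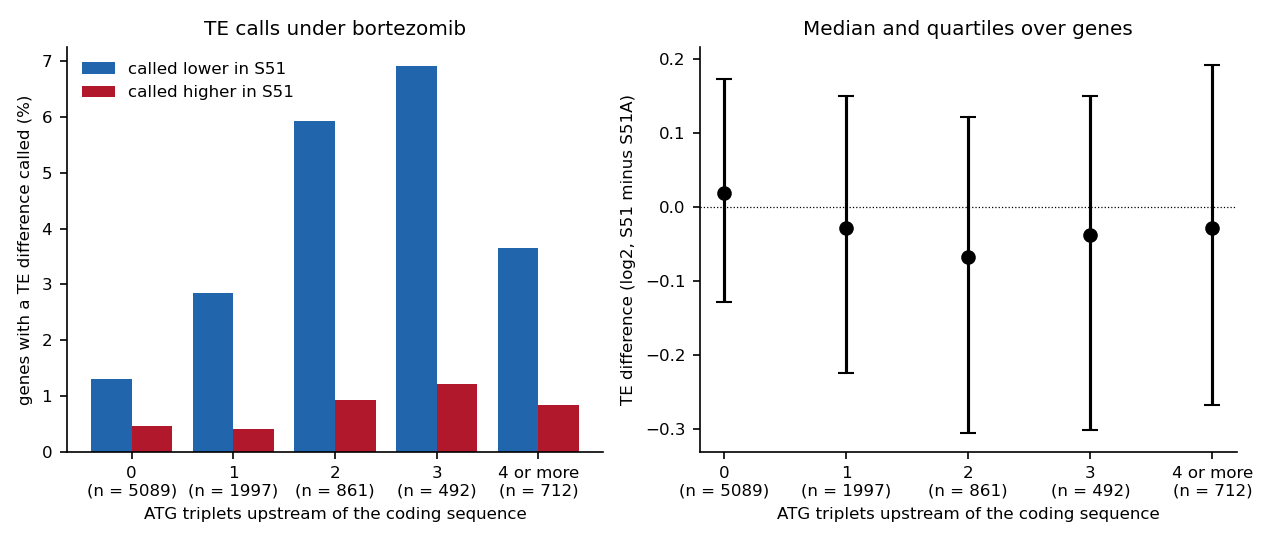
Left, the percent of genes called lower (blue) or higher (red) in TE in S51 by the number of ATG triplets upstream of the annotated coding sequence, 492 to 5089 genes per bin. Right, the median TE difference (log2 S51 minus S51A) with its quartiles, which lies between -0.07 and 0.02 in every bin, so the calls differ more between bins than the medians do.

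Apart from that of Ddit3, the largest RPF differences among genes that met the same conditions on counts and overlap were also called under vehicle. Cdkn1c, an imprinted inhibitor of cyclin-dependent kinases, had 13.1, 23, 21.2 and 20.7 CPM in S51 and no count in any S51A library, so that it was at least 15.1-fold higher (taking 3 counts per S51A library as the limit). Ctsc, the lysosomal protease cathepsin C, had 12.4, 10.5, 12.1 and 8.96 CPM against 0 throughout, at least 8.54-fold higher. Both were also called higher in total RNA and under vehicle. Krt20, a keratin of simple epithelia, had 165 to 204 CPM in S51 and 21.9 to 24.2 in S51A (2.99 ± 0.13), and Serpine2, an inhibitor of serine proteases, 96.8 to 111 against 11.4 to 15.5 (2.92 ± 0.13). Pdzrn3 (3.12), Igsf9b (3.07), Galnt6 (2.76) and Arid5a (2.65) completed the leading genes. Of these, Arid5a had a called interaction, 1.67, with 14 to 17.5 CPM against 1.93 to 3.1, which was lost without any 1 of the bortezomib libraries except S51A replicate 4 (1.53 to 1.75).

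On the lower side, Endou, an endoribonuclease of differentiated epidermis, had no count in S51 and 7.09, 14.1, 10.4 and 12.4 CPM in S51A, at least 5.59-fold lower. The prolactin family members Prl8a9 and Prl8a1 had 0.56 to 5.74 and 1.89 to 3.92 CPM in S51 and 58.8 to 83.1 and 24.9 to 33.2 in S51A. They, Gstp3 (-3.06) and BC061237 (-4.56) belong to families of similar genes, which may lose counts because only uniquely mapped reads were kept. Bcl2l15, a BCL2 family member, had 5.04 to 9.56 CPM against 60.3 to 65.8 (-3.23 ± 0.19). The epidermal and cytokine genes Il1f9 (-5.05), Cnfn (-3.67), S100a7a (-3.14) and Il1a (-3.06), with Lypd5 (-3.33) and the kinase Camk1d (-3.26), had at most 2.24 CPM in any S51 library. All were called lower under vehicle and in total RNA as well.

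Epidermal keratins and differentiation genes accordingly held 20 lower and 3 higher calls among 39 tested, with a median of -0.70 in RPF, -0.68 under vehicle and -0.63 in total RNA. Ivl (involucrin), a scaffold of the cornified envelope, had 3.36 to 11 CPM in S51 and 32.5 to 48.2 in S51A (-2.31 ± 0.26), and Sprr1a, another envelope protein, 10.2 to 18.9 against 62.8 to 102 (-2.43 ± 0.23). Krt15, a keratin of basal and stem cells, was higher, at 48.8 to 89.1 against 11.3 to 41.4 CPM (1.88 ± 0.31), as was Cdh3 (P-cadherin), at 0.87 ± 0.09. Of the 9 basal keratinocyte and SCC markers, in contrast, none was called higher and 3 were lower, Krt8 (-0.76), Itga6 (-0.75) and Krt18 (-0.60). Their median was -0.37, and -0.36 under vehicle. Krt18 lost its call without S51 replicate 1 or S51A replicate 4.

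Of 14 tested inflammatory cytokine and chemokine genes 9 were lower and none higher, with a median of -0.94 (-1.30 under vehicle). Cxcl5, which attracts neutrophils, had 5.74 to 12.1 CPM in S51 and 48.4 to 81.2 in S51A (-3.06 ± 0.23). With at least 10 counts required in every library 3 lower calls of this list were left among 7 genes, with a median of -0.061, and 13 of the epidermal one. That filter takes out genes nearly silent in S51, such as Il1f9 and Il1a, so it cannot show whether their differences hold. Integrins had 4 of 10 lower, with Itgb7 at 25.8 to 36.4 against 198 to 210 CPM (-2.71 ± 0.12) and Itga6, which anchors basal cells to the basement membrane, at 662 to 763 against 1130 to 1250 (-0.75 ± 0.07). Focal adhesion genes had 6 of 36 lower, where 10.1% of all tested genes were, led by the actin crosslinker Flnc (-1.67 ± 0.13). Under vehicle 5 integrins were called lower, with a list median of -0.60 against -0.32 under bortezomib. There 4 focal adhesion genes were called lower and 2 higher, and without S51 vehicle replicate 2 4 lower and 0 higher. The vehicle differences of Flnc, Itgb7 and Itga6 were -2.33, -2.61 and -0.88.

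Of 39 tested mitosis genes 14 were called higher and none lower, 36 lay above 0, and the median was 0.40 in RPF and 0.34 in total RNA, against -0.09 under vehicle, where 1 was called lower. Cenpa, the centromere's histone, had 47.8 to 66.9 CPM in S51 and 26.4 to 32.1 in S51A (0.98 ± 0.16). Incenp, of the chromosomal passenger complex, had 289 to 340 against 186 to 200 (0.76 ± 0.08), and Racgap1, needed for cytokinesis, 248 to 270 against 131 to 168 (0.73 ± 0.11). For the kinesin Kif20b, at 123 to 153 against 68.7 to 99.2 (0.72 ± 0.22), the vehicle difference was -0.35 (-0.044 without S51 vehicle replicate 2), and the call was lost without S51 replicate 3 (0.63) or S51A replicate 3 (0.66). The interaction called 6 of the 39 higher, 8 without S51 vehicle replicate 2. These differences were small: 9 members were called without S51 bortezomib replicate 3, and 1 passed a test against 1.5-fold itself.

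Centrosome and centriole genes gave 10 higher and 2 lower calls among 59, with a median of 0.10, led by the low-count genes Sfi1 (2.06), Ninl (1.70), Bbs4 (1.31) and Pard6a (1.22). The higher calls fell to 4 with at least 10 counts per library and to 5 after thinning all libraries to the shallowest one. Under vehicle 4 of the list were called higher and 4 lower, and the interaction called 1 higher. Ninl was called under vehicle (1.62), and Sfi1 (0.79), Bbs4 (0.53) and Pard6a (0.11) were not. Tubgcp4, of the γ-tubulin ring complex, was lower at 27.7 to 38.6 against 64.5 to 73.1 CPM (-0.98 ± 0.12). DNA replication genes had 4 of 39 higher, where 7.73% of all tested genes were. The licensing factor Cdt1 was at 121 to 147 against 59 to 68.1 CPM (1.12 ± 0.17). Under vehicle Cdt1 differed by 1.43, also a call. The p53 pathway list had 7 of 28 higher and 2 lower. It included Gdf15 and Ddit4, which the ATF4 list also holds, and Ccng2, a cyclin, at -2.11 ± 0.45. Ddit4, an inhibitor of mTORC1, was at 331 to 380 against 125 to 209 CPM (1.04 ± 0.16). Under vehicle 4 of this list were called higher and 1 lower, with Ddit4 at 1.05 and Ccng2 at -2.69, both called.

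Of 28 sterol and fatty acid synthesis genes 10 were called lower in S51 and 1 higher, where 10.1% and 7.73% of all tested genes were. The median was -0.58. Under vehicle 10 were also called lower and 1 higher, with a median of -0.33, and the interaction called 2 higher and none lower. Hmgcs1, which makes HMG-CoA, had 111 to 136 CPM in S51 and 241 to 299 in S51A (-1.13 ± 0.11). Fdft1, the squalene synthase, had 20.1 to 38.6 against 67.7 to 84 (-1.34 ± 0.17). Their vehicle differences were -1.49 and -1.47, both called.

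Proteasome subunits rise when the proteasome is inhibited. None of the 39 tested was called different between the lines by edgeR's quasi-likelihood test or by DESeq2, with 8 higher and 6 lower at an unadjusted p under 0.05 and a median of -0.01. Of 45 oxidative phosphorylation genes none was called by either tool, with 5 higher and 9 lower at an unadjusted p under 0.05. Heat shock chaperones had none of 42 called higher and 4 lower, where 7.73% and 10.1% of all tested genes were. The 4 were Cryab at 99 to 165 against 267 to 556 CPM (-1.74 ± 0.19), Hspb1 at 4100 to 6210 against 6680 to 11800 (-0.89 ± 0.16), Dnajb4 (-0.65) and Hspa1a (-0.62). Under vehicle 5 chaperones were called lower, among them Cryab (-1.06), Hspb1 (-0.65) and Dnajb4 (-0.78), and 1 was called higher. Dnajb4 lost that call without S51 vehicle replicate 2 (-0.53), and no chaperone had a called interaction. Hspa1a has a near-identical copy, so its counts are uncertain. It stood at -0.58, under the fold limit, without S51 replicate 2 or S51A replicate 4. NRF2 targets had 4 of 23 higher, among them Osgin1 (1.75 ± 0.14) and haem oxygenase Hmox1 (0.69 ± 0.10, interaction 0.75, called). The 2 lower were the quinone reductase Nqo1 (-1.29) and Gstp1 (-0.70). Under vehicle Osgin1 (1.13) and Nqo1 (-1.55) were called too, and Hmox1 (-0.06) and Gstp1 (-0.51) were not.

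The other lists held few calls or calls in both directions, beside 7.73% of all tested genes called higher and 10.1% called lower. Genes of endoplasmic reticulum folding had 1 of 30 higher, Herpud1 (1.72), and 1 lower, the eIF2α kinase Eif2ak3 (-0.63). The eIF2 and eIF2B list of 18 had 4 higher, Ppp1r15a, Impact, Eif2b3 (0.76) and Eif2s2 (0.61), and 1 lower. Without S51 replicate 3 Eif2ak3 (-0.48) and Eif2s2 (0.58) lost their calls, as they did without S51A replicate 3 (Eif2ak3, -0.55) or 4 (Eif2s2, 0.57). Extracellular matrix genes had 4 higher and 4 lower of 26, with Thbs1 (-2.16), Ccn1 (-2.22), Ccn2 (-1.40) and Col4a1 (-0.67) lower and Sparc (0.77) and Plaur (0.79) among the higher. TGF-β and BMP genes had 6 higher and 4 lower of 25, with Id1 (0.78) and Id3 (1.01) higher and Id2 (-0.87) lower, and MAPK pathway genes had 2 higher (Myc and Dusp6) and 2 lower (Erbb3 and Hras) of 23, where Hras was at -0.54, under the fold limit, without S51 replicate 4. There were 3 higher and 6 lower of 27 glycolysis and hypoxia genes, 2 and 6 of 34 autophagy and lysosome genes, 2 and 4 of 15 imprinted genes, and 0 and 4 of 15 interferon-stimulated genes.

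**Figure D5:**
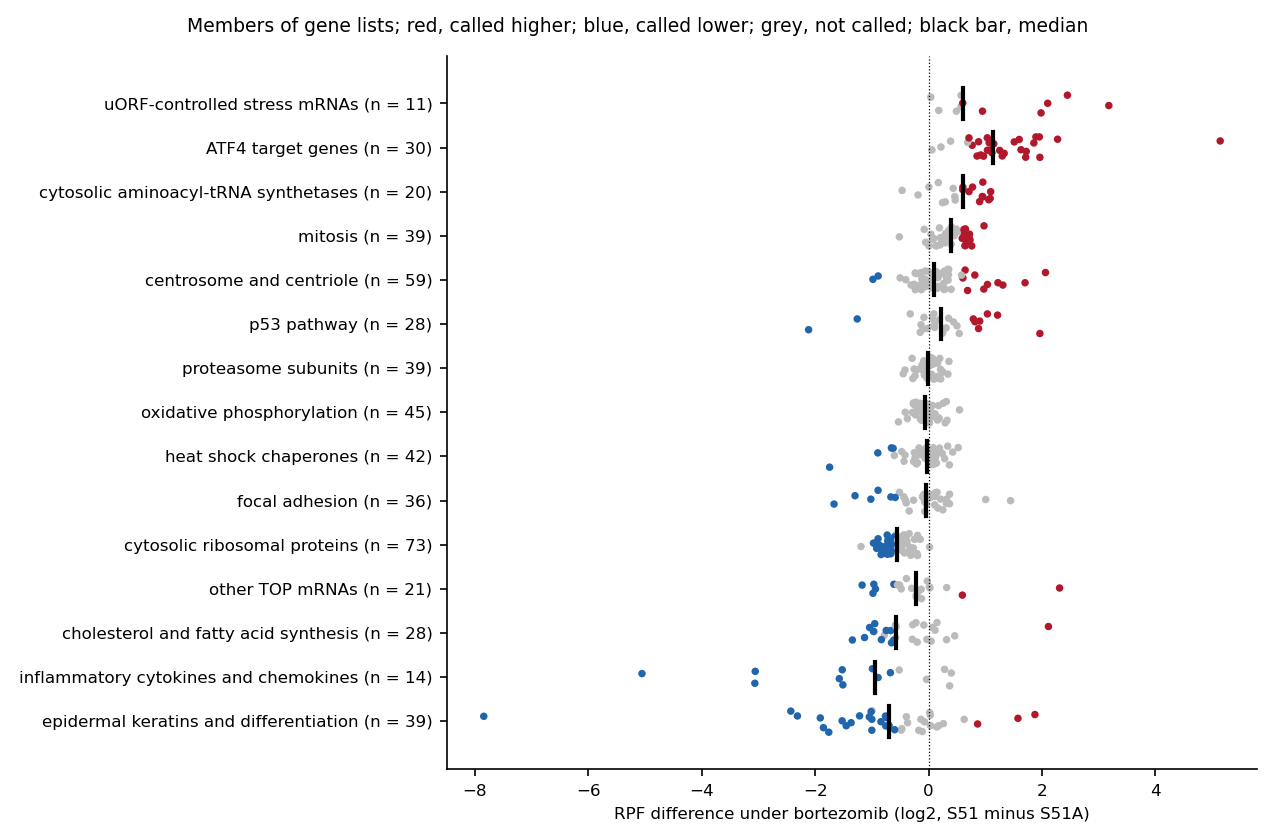
Each point is a list member's RPF difference under bortezomib (x, log2 S51 minus S51A), red if called higher, blue if called lower and grey if not called, with a black bar at the list's median. The ATF4 targets centre at 1.13 and the ribosomal proteins at -0.56, while proteasome subunits and oxidative phosphorylation genes lie about 0.

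Only 4 genes were called in opposite directions under the 2 treatments. They were chosen after their values were seen. H2-Bl differed by 2.23 under bortezomib and -2.34 under vehicle, Ovol1 by 1.58 and -1.15, Cspp1 by 1.04 and -0.87, and Esrra by -0.81 and 0.61. H2-Bl belongs to a family of near-identical genes and the Ovol1 libraries overlapped under bortezomib. Without S51 vehicle replicate 2 the vehicle difference of Esrra was 0.25 and Cspp1 had an adjusted p of 0.0573.

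For 34 genes the total RNA difference was called and the RPF difference was not, with TE called the opposite way. Of these, 24 had higher and 10 lower RNA in S51. The peroxidasin gene Pxdn was the most extreme. Its total RNA was 0.0504, 0.0482, 0 and 0.0512 CPM in S51 and 1.74, 1.46, 1.8 and 2.26 in S51A, a difference of -5.40, while RPFs were at 3.64, 1.91, 1.89 and 2.8 CPM against 2.9, 4.39, 2.08 and 5.42. These RPFs overlapped and rest on 17 counts in S51, whereas under vehicle the RPF difference was -4.46. Hnrnpa1, an RNA-binding protein from the TOP list, had total RNA of 625 to 637 against 318 to 337 CPM (0.95), and RPFs of 190 to 221 against 136 to 178 CPM (0.32). Cmtm4 (RNA 0.88, RPF -0.57), Tango6 (1.05 and 0.09), Gyg (1.12 and 0.32), Krt17 (-2.10 and -0.47), Atg9a (-0.80 and -0.21) and Slc66a1 (-0.73 and 0.11) were the others with the largest RNA differences. Except for Hnrnpa1, Cmtm4, Tango6 and Pxdn, each of these lost its TE call without at least 1 library, always including S51 replicate 3 (Gyg -0.58, Krt17 1.16, Atg9a 0.52, Slc66a1 0.83).

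Calls were spread unevenly over chromosomes. On chromosome 9, 92 of 535 genes (17.2%) were higher and 34 lower, with a median of 0.20. On chromosome 2, 35 of 771 were higher and 127 lower (16.5%), with a median of -0.20. The medians under vehicle were 0.17 and -0.19, and whether DNA copy number differed between the clones was not tested.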

How the data were processed

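Ribosome profiling and total RNA sequencing were carried out on S51 and S51A SCC cells after vehicle or bortezomib, in 15 RPF and 16 total RNA libraries. The authors deposited raw read counts per gene, made with FastX, bowtie2 and plastid on mm10 according to the study, while the labels name Bowtie2, featureCounts and DESeq2, with no versions. RPF counts leave out the first 15 and last 5 codons, and column names state fragment lengths of 20 to 23 or 26 to 32 nucleotides and uniquely mapped reads of quality 50, so genes with near-identical copies lose counts. The titles of S51 bortezomib and S51A vehicle samples were exchanged in the series after deposit with the data left in place, and columns were assigned by that note.

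Counts as deposited were filtered with filterByExpr (at least 10 counts in enough libraries, 15 in all), scaled by TMM and fitted with edgeR 4.0.16 quasi-likelihood models (limma 3.58.1, R 4.3.3) over all libraries of a kind, with 4 groups. This tested 9457 genes in RPF and 11708 in total RNA. Calls took a Benjamini-Hochberg adjusted p under 0.05 and a fold over 1.5, over the whole table, and only autosomal genes were counted. X-linked genes (280 tested), Y-linked genes (4) and 1 gene without a chromosome stayed out of the counts. TE was tested by a model with an interaction of library kind and group, and by 2 steps: a call in RPF with a log2 RPF difference that exceeds the one in total RNA by the fold limit. Intervals (95%) cover counting error only. DESeq2 1.42.0 was an alternative. The tests were checked on simulated counts.

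The comparison and 27 gene lists were chosen with earlier results of these data known. Named genes were those with the largest RPF differences, over all genes and among those called in TE (non-overlapping libraries, at least 10 counts in the higher line), Eif2s1 and the uORF list, up to 4 called members of each list and direction, and the largest RNA differences without an RPF call, and others are named as chosen after their values were seen. One gene that the rule names is not reported here. Replicate numbers do not pair the samples: deviations from the group means of same-numbered libraries of the 2 lines correlated at 0.0204, 0.0445, 0.0223 and 0.0884.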

Additional observations from a re-analysis of the deposited data

Results flagged for a closer look

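In 19 of the 160 named genes the line difference in RPF under bortezomib differed from that under vehicle by edgeR's quasi-likelihood test of the interaction with Benjamini-Hochberg adjustment over all genes. In log2 units it was higher under bortezomib for Pxdn by 3.89, Ovol1 by 2.72, Ddit3 by 2.42, Ppp1r15a by 2.12, Arid5a by 1.67, Atf5 by 1.42, Atf4 by 1.40, Vegfa by 1.39, Ifrd1 by 0.93, Hk2 by 0.79, Hmox1 by 0.75 and Lars by 0.68. It was lower for Eef2 at -1.13, Rps19 at -1.01, Eef1a1 at -0.94, Ccn2 at -0.91, Rps21 at -0.83, Rplp2 at -0.82 and Eef1b2 at -0.76. Ccn2 lost the call without S51 bortezomib replicate 1 or 3 or S51A replicate 4 (-0.92 to -0.73), and Pxdn without S51 bortezomib replicate 1 or 4 (3.72 and 3.84). For Pxdn, the vehicle RPF difference was -4.46 and that under bortezomib -0.57, with total RNA at -5.40. Over all genes the interaction called 0.883% higher and 1.01% lower. Most named genes were chosen for a large RPF difference under bortezomib, which is part of the interaction. The 19 of 160 therefore cannot be compared with the shares over all genes.

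Single libraries stood apart from the other three of their line in 21 of 320 groups of 4 looked at, where chance gives about 1 in 20. In S51, replicate 1 was low for 2410002F23Rik (8.01 CPM, the next at 17.2) and Lars (587, the next at 687) and high for Eef1b2 (437, the next at 378) and Pold1 (88.8, the next at 70.7). Replicate 2 was high for Sfi1 (10.5, the next at 4.16), replicate 3 high for Cxcl5 (12.1, the next at 6.16) and low for Cdt1 (121, the next at 143), and replicate 4 high for Cnfn (2.24, the next at 0.378) and low for Hras (34.7, the next at 48.4). In S51A, replicate 1 was low for Atf4 (108, the next at 137) and high for Eef1a1 (7320, the next at 6260) and Prl8a1 (33.2, the next at 25.9). Replicate 2 was high for Adm (72.6, the next at 42.6), Trim25 (110, the next at 89.9) and Tubgcp4 (73.1, the next at 65.4) and low for Thbs1 (1100, the next at 1350). Replicate 3 was low for Il1a (6.76, the next at 12.2) and Ctsz (94.7, the next at 97.9) and high for Pard6a (8.32, the next at 4.19), and replicate 4 high for Myc (44.9, the next at 36.9) and low for Fst (54.9, the next at 82.7).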

How the results depend on the processing

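Of 152 recomputed counts 134 stayed within 1.5 times the reported one. With library sizes alone TE calls numbered 126 higher and 141 lower in the model and 114 higher by 2 steps. With at least 10 counts in all 8 libraries they were 30 higher in the model, and 21 higher and 130 lower by 2 steps. A test against 1.5-fold itself called 167 RPFs higher and 269 lower, and a 2-fold limit on total RNA gave 148 and 319. DESeq2 called 714 and 869 RPFs. Leaving out 1 library at a time gave 611 to 693 higher and 829 to 894 lower RPF calls under bortezomib, 473 to 906 and 759 to 895 under vehicle, 627 to 654 and 822 to 837 in total RNA, 63 to 85 and 206 to 242 for TE by 2 steps, and 30 to 59 and 194 to 244 in the TE model. For the interaction it gave 41 to 149 higher and 57 to 133 lower. The lowest values came without S51 bortezomib replicate 3 and the highest without S51 vehicle replicate 2, a setting added after seeing the data. The higher interaction calls were also 51 without S51 bortezomib replicate 4, 48 without S51A replicate 2 and 52 without S51A replicate 3 or 4. The cause of these moves was not tested. RPF depth, 1038826 counts in the shallowest library, limits genes with few counts.

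Since replicate numbers were not taken to pair the samples, the replicate block is given here alone: 714 and 936 RPF calls under bortezomib, 640 and 872 under vehicle, 105 and 85 for the interaction, 637 and 817 in total RNA, and for TE with a block by shared lysate 67 and 215 by 2 steps and 39 and 210 in the model.

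For 146 named genes with an RPF call, 2304 of 2405 recomputed values stayed called, 101 did not, mostly in the test against 1.5-fold, none reversed, and 90 genes never lost the call. Signs turned for values that were not called: the RPF difference of Slc35a4 (0.04) became -0.11 after thinning and -0.020 to 0.13 without single libraries, that of Tango6 (0.09) ran from -0.078 to 0.21, and the TE differences of Cebpb (0.03) and Cebpg (-0.07) ran from -0.071 to 0.11 and from -0.16 to 0.051. With library sizes alone that of Cebpg was 0.031.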

Other observations

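Genes of glucose use and hypoxia, chosen by the same rule as the other named genes, differed in both directions. Hk2, an inducible hexokinase, had 77.1, 111, 99.1 and 108 CPM in S51 and 41.2, 45.8, 42.6 and 37.9 in S51A, a difference of 1.24 ± 0.13 in RPF and 1.09 in total RNA, against 0.45 under vehicle. Hk1, the constitutive hexokinase, had 111 to 115 CPM against 168 to 197 (-0.73 ± 0.09), with -0.75 under vehicle. Car12, a carbonic anhydrase, was higher at 99.7 to 130 against 29.8 to 49.4 CPM (1.62 ± 0.14), and Adm (adrenomedullin) lower at 9.46 to 21 against 39.6 to 72.6 (-1.70 ± 0.24), both with differences of the same sign under vehicle (1.57 and -2.44).

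In the lysosome list the proteases parted: Ctsc had no count in S51A, whereas Ctsz (cathepsin Z) had 26.9 to 42.9 CPM in S51 and 94.7 to 97.9 in S51A (-1.42 ± 0.14). Tfeb, a transcription factor of lysosomal genes, had 1.91 to 3.78 CPM against 5.48 to 10.2 (-1.19 ± 0.35). Outside the autosomes 15 genes were called higher and 25 lower in RPF.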
